A study of Mus musculus with 6 samples.

Results

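Pancreatic lipase-related proteins 1 and 2 (Pnliprp1 and Pnliprp2) and colipase (Clps) are 3 genes of fat digestion best known from the pancreas, and all 3 were measured in epithelium cut from the base of mouse ileal crypts. They were picked by symbol, with their difference between genotypes known, from the 744 genes that the authors' table names, on an array of 28853 probe sets. In that table each of the 3 has 1 probe set, which carries its symbol alone. Probe sets outside the table have no name here, so further ones for these genes could not be looked for. The samples were laser captures from 8-week-old mice on the C57BL/6J background, 3 from Nod2-/- mice and 3 from wild-type (WT) mice. Nod2 encodes a cytosolic sensor of peptidoglycan from bacteria, and the labels do not describe the allele beyond Nod2-/-, so the groups differ by genotype with no treatment in either. The labels call the captured cells Paneth cells, the secretory cells of the crypt base, because the cut was placed there, with qPCR of alpha-defensins as the study's own check, and they tie no capture to an animal. Each sample gave 100 ng of total RNA for 1 Affymetrix MoGene 1.0 ST array.

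Pancreatic triglyceride lipase splits dietary triglycerides in the gut lumen, where bile salts coat the fat droplets and push the enzyme off. Colipase is the small secreted cofactor that anchors lipase to such droplets. The lipase-related proteins are close relatives of the lipase: Pnliprp2 also splits galactolipids and phospholipids, whereas little triglyceride lipase activity is known for Pnliprp1. In the mouse, transcripts of Clps and Pnliprp2 are known outside the pancreas, Paneth cells included.

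In mm9 coordinates of the authors' table, the Pnliprp1 probe set (10464313) spans chromosome 19, 58803377 to 58818659, plus strand, and the Pnliprp2 probe set (10464328) spans chromosome 19, 58834209 to 58852024, also on the plus strand. The genes are neighbours, with 15.6 kb between the spans. The Clps probe set (10449467) spans chromosome 17, 28695158 to 28697659, minus strand. Each span covers the gene as a whole, and the probes within it were not placed on exons here.

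The 250 bases before the RefSeq start of the neighbouring lipase-related genes are shown because these genes lie side by side and, as given below, ranked the 6 arrays in the same order. They come from the RefSeq promoter table of GRCm38.p6, in which 2 of the 3 genes were matched. Both are on the plus strand, at chr19:58728637-58728886 for Pnliprp1 and chr19:58759473-58759722 for Pnliprp2, and Clps is not shown. Capitals mark matches to the E-box CANNTG, the letters that basic helix-loop-helix factors bind.
Pnliprp1: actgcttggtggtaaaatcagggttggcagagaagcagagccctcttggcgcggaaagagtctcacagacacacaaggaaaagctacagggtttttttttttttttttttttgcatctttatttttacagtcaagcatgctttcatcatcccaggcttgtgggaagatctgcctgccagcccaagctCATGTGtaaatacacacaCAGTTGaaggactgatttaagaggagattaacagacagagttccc
Pnliprp2: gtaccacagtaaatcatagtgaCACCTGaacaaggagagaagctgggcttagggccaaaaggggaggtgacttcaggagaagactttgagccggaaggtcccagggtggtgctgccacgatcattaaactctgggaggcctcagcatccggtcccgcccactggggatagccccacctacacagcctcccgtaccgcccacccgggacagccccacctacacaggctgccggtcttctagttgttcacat

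Pnliprp1 had the E-box letters at 63 to 58 and at 45 to 40 bases before its start, and Pnliprp2 had them once, at 228 to 223 bases before it. At least 1 such match was found in 66.2% of 32851 promoters of the same length, searched on both strands. The other motifs searched were TATAAA (12.4% of promoters), TTTCCC, one element of the site of the pancreatic factor PTF1 (21.9%), and ATCAAAG, bound by TCF/LEF factors (3.21%), none of which overlapped an E-box match. Neither window held any of these letters on either strand. The Pnliprp1 window was 43.6% G or C and the Pnliprp2 window 58.4%, against a median of 52.4% over all promoters.

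The array as a whole set the scale on which the 3 genes are read. The median intensity of an array lay between 34.5 and 35.4, and log2 values of any pair of arrays correlated at 0.971 to 0.987 across probe sets, which are not replicates. The number of arrays, 3 per genotype, limits the precision, and the spread between them may be partly technical. No probe set of the array passed limma (Benjamini-Hochberg adjusted p under 0.05 over 28853 probe sets), against 1106 at an unadjusted p under 0.05. The unpaired test named in the file headers gave 1043 unadjusted and 0 adjusted. The background share was therefore 0.0%, and 0 of the 3 genes were called. Their differences are given below as a description, because these were known when the genes were chosen.

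Pnliprp2 and Clps stood near the top of every array, whatever the genotype, and Pnliprp1 lay lower. Pnliprp2 held places 29, 44 and 180 from the top among all probe sets in Nod2-/- replicates 1, 2 and 3, and places 71, 558 and 240 in WT replicates 1, 2 and 3. Clps held places 38, 52 and 156 in Nod2-/-, and 80, 351 and 133 in WT. Both were therefore at or above the 98th percentile on all 6 arrays. Pnliprp1 lay at the 84.6th, 82.3rd and 59.6th percentile in Nod2-/-, against the 65.6th, 31.8th and 41.0th percentile in WT. In WT replicates 2 and 3 it was below the array's median, by 0.39 and 0.21 on the log2 scale. Signal over background was not analysed, so for Pnliprp1 the WT level, and with it the fold, may be limited by background. Places compare signals of different probes and are not amounts of transcript.

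**Figure D1:**
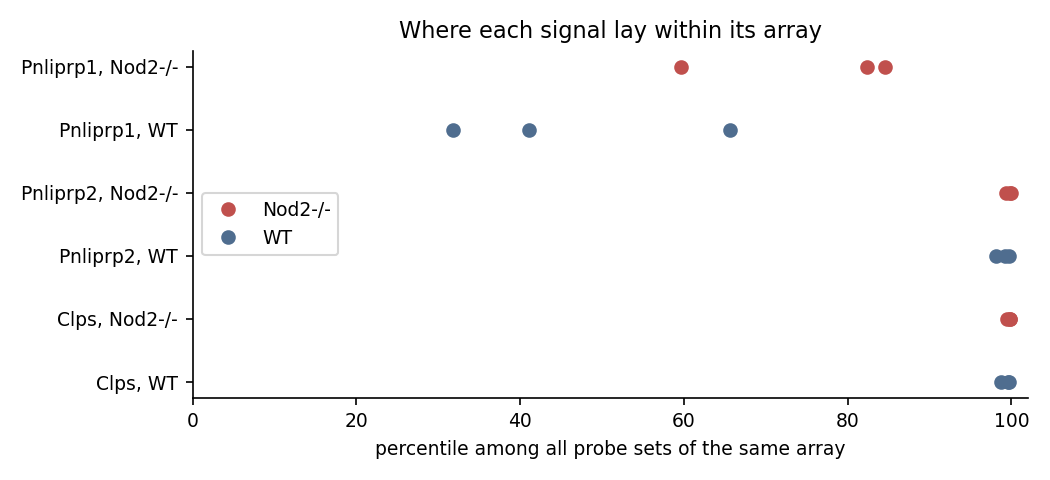
Percentile of each gene's signal (horizontal axis) among the 28853 probe sets of the same array, by gene and genotype, 1 point per array. Pnliprp2 and Clps sit at the right edge in both genotypes, and Pnliprp1 lies between 59.6 and 84.6 in Nod2-/- and between 31.8 and 65.6 in WT.

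Pnliprp2, the lipase-related enzyme with the broader range of substrates, had intensities of 6505, 5320 and 3250 in Nod2-/- replicates 1, 2 and 3, and 4331, 1819 and 2901 in WT replicates 1, 2 and 3. The genotypes overlapped, since WT replicate 1 was above Nod2-/- replicate 3. Of the 9 pairings of a Nod2-/- with a WT array, the Nod2-/- array was higher in 8. Mean log2 intensity was 12.24 ± 0.52 in Nod2-/- and 11.47 ± 0.63 in WT (SD, n = 3 each). The log2 difference was 0.77 (standard error 0.47), which is 1.70-fold. Without WT replicate 2, the lowest array, the log2 difference was 0.45, or 1.36-fold.

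Clps, the colipase cofactor, had intensities of 5781, 4995 and 3409 in Nod2-/- replicates 1, 2 and 3, against 4177, 2583 and 3573 in WT replicates 1, 2 and 3. Here Nod2-/- replicate 3 lay below both WT replicate 1 and WT replicate 3, so that 7 of 9 pairings were higher in Nod2-/-. Means were 12.17 ± 0.39 in Nod2-/- and 11.72 ± 0.35 in WT (log2 intensity, SD, n = 3 each). The log2 difference of 0.45 (standard error 0.31) corresponds to 1.37-fold. It was 0.29 without Nod2-/- replicate 1 and 0.26 without WT replicate 2.

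Pnliprp1, the relative with little known lipase activity, had the highest fold of the 3 and the lowest intensities. They were 136, 110 and 44.5 in Nod2-/- replicates 1, 2 and 3, against 53.3, 26.4 and 30.1 in WT replicates 1, 2 and 3. Again only WT replicate 1 and Nod2-/- replicate 3 overlapped, and 8 of 9 pairings were higher in Nod2-/-. Mean log2 intensity was 6.45 ± 0.86 in Nod2-/- and 5.12 ± 0.54 in WT (SD, n = 3 each), a log2 difference of 1.32 (standard error 0.58), or 2.50-fold. With 1 array left out the fold lay between 2.00 (without Nod2-/- replicate 1) and 3.50 (without Nod2-/- replicate 3).

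**Figure D2:**
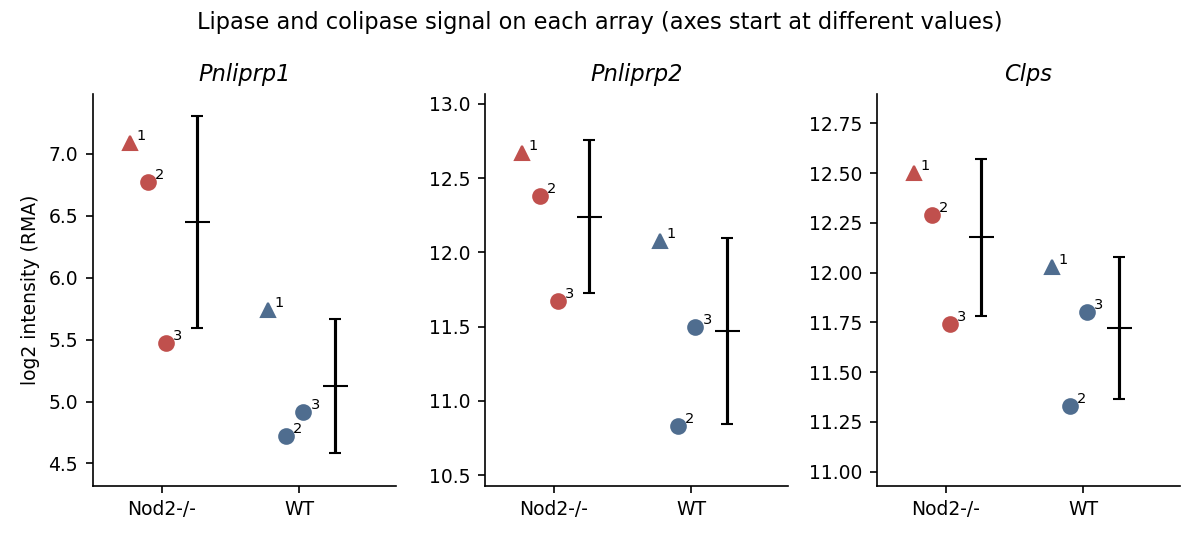
Log2 intensity (RMA, vertical axis, with a different start in each panel) of Pnliprp1, Pnliprp2 and Clps on the 3 Nod2-/- and 3 WT arrays, numbered by replicate, with triangles for the arrays that share the date of replicate 1. Black marks show the mean ± SD of 3 arrays; in each panel Nod2-/- replicate 3 lies below WT replicate 1.

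All 3 genes had at least 1 WT array above a Nod2-/- array. Over the array, every Nod2-/- array lay above every WT array in 3.42% of probe sets, and 0 of the 3 genes were among these. A log2 difference of 0.411 or more in favour of Nod2-/-, the size that brings a probe set into the authors' table, was found for 2.11% of probe sets and for all 3 genes, which is how they came to have names. By size of the log2 difference, Pnliprp1 was number 23 from the top of 28853 probe sets, Pnliprp2 number 100 and Clps number 446. The median log2 difference of all probe sets was -0.0069.

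In the column names, replicate 1 of each genotype shares a number that reads as a date, and replicates 2 and 3 share a different one. What these dates record is not stated. On the date of replicate 1, with 1 array per genotype, the log2 differences were 1.35 for Pnliprp1, 0.59 for Pnliprp2 and 0.47 for Clps. On the other date they were 1.31, 0.86 and 0.44 in the same order of genes. Within that date both Nod2-/- arrays were above both WT arrays for Pnliprp1 and Pnliprp2, and for Clps the arrays overlapped. The share of all probe sets separated in this way on that date was not counted. The genes were also chosen with their difference known, so the separation is only a description. Replicate 1 was the highest array of its genotype for all 3 genes.

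**Figure D3:**
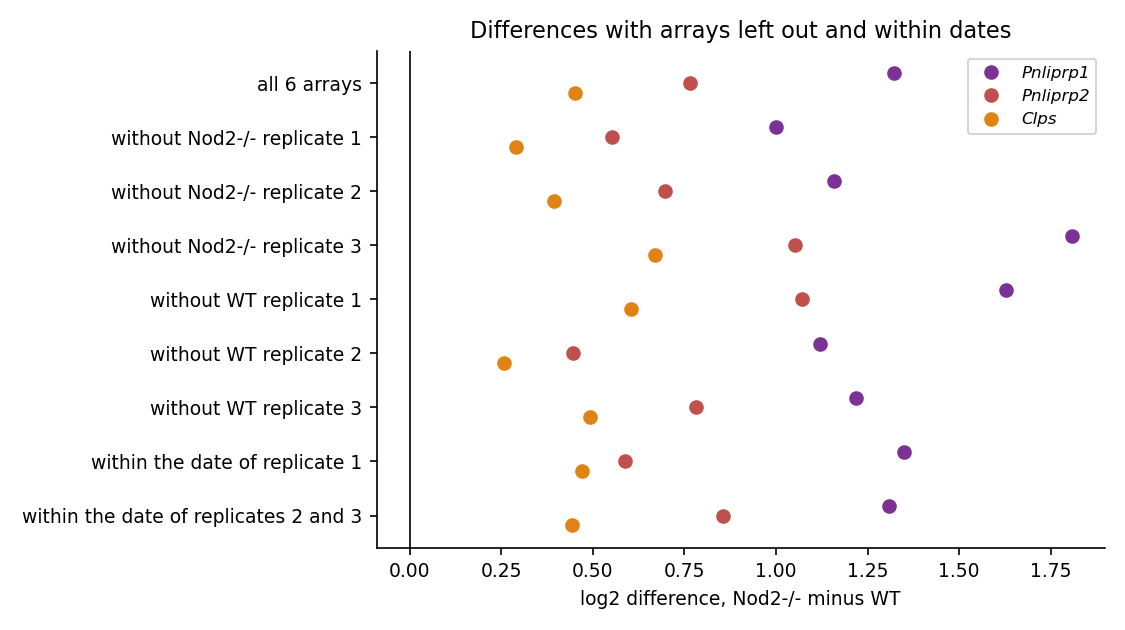
Log2 difference, Nod2-/- minus WT (horizontal axis), of Pnliprp1, Pnliprp2 and Clps with all 6 arrays, with each array left out, and within each date. All points lie above 0; the lowest is Clps at 0.26 without WT replicate 2, and the highest is Pnliprp1 at 1.81 without Nod2-/- replicate 3.

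The 3 genes ordered the arrays almost alike. For Pnliprp1 and Pnliprp2 the order from high to low was Nod2-/- replicate 1, Nod2-/- replicate 2, WT replicate 1, Nod2-/- replicate 3, WT replicate 3 and WT replicate 2. For Clps, Nod2-/- replicate 3 (11.74) and WT replicate 3 (11.80) changed places. The order of all 6 arrays seen for the lipase-related genes was found in 24 probe sets, or 0.0832%, and that of Clps in 15. Among the 744 named genes, 6 had the first order and 2 that of Clps, these 3 genes included. Such an order contains the genotype difference by which the genes were chosen, so its share over the array is no measure of likeness.

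Deviations from the genotype means do not use the difference by which the genes were chosen. The order of the arrays within each genotype was the same for all 3 genes and held in 654 of 28853 probe sets (2.27%). Over the 6 arrays, deviations of Clps and Pnliprp2 correlated at 0.982, those of Pnliprp1 and Clps at 0.932 and those of Pnliprp1 and Pnliprp2 at 0.916. These are descriptions over arrays that share RNA and hybridisation, with no test. Ranked by this correlation with Pnliprp2, Clps stood at place 37 among the 28852 other probe sets, and Pnliprp1 at place 312. Ranked by correlation with Clps, Pnliprp2 stood at place 23 and Pnliprp1 at place 189. Ranked by correlation with Pnliprp1, Clps stood at place 239 and Pnliprp2 at place 332. Genes outside the 3 were closer in part: Alox5ap, the activator of 5-lipoxygenase, stood at place 10 for Pnliprp1 (0.993), and Reg4, a secreted lectin, at place 85 (0.965). For Pnliprp2, Reg4 stood at place 81 (0.963), ahead of Pnliprp1. These shared deviations were therefore not particular to the 3 genes.

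The spread between arrays of one genotype was wide for the lipase-related genes. The SD within genotypes was 0.72 for Pnliprp1, 0.57 for Pnliprp2 and 0.37 for Clps on the log2 scale, against a median of 0.12 over all probe sets. Among the tenth of probe sets closest in mean intensity, these stood at the 98.3rd, 97.0th and 87.1st percentile. The highest array was 3.06 times the lowest for Pnliprp1 within Nod2-/- and 2.02 times within WT. For Pnliprp2 the ratios were 2.00 within Nod2-/- and 2.38 within WT, and for Clps 1.70 within Nod2-/- and 1.62 within WT. For Pnliprp2 and Clps the difference between genotypes was thus smaller than the range within either one.

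Among the named genes, those with the most similar values over the 6 arrays were found by the root mean square distance of log2 values, each gene centred on its own mean. The named genes were selected by the authors on their difference between genotypes, so part of the likeness is set by that selection. Closest to Pnliprp1 were Alox5ap (distance 0.20), Reg4 (0.24) and the microRNA gene Mir677 (0.33). Closest to Pnliprp2 were Alox5ap (0.24), Clps (0.24) and Far1, an enzyme that makes fatty alcohols (0.28). Closest to Clps were Polr3e, a subunit of RNA polymerase III (0.15), Slc39a11, a zinc transporter (0.19), and Trpm5, a cation channel of taste and tuft cells (0.20). The probe set named Polr3e spans only chromosome 7, 128090556 to 128090675, so it may not measure that gene as a whole. When each gene was also scaled to the same SD, 2 of these 3 remained for Pnliprp1, 2 for Pnliprp2 and 0 for Clps. Reg4 and Alox5ap were then among the 3 closest to each of the 3 genes.

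Reg4 had log2 intensities of 12.33, 11.72 and 10.56 in Nod2-/- replicates 1, 2 and 3, against 11.29, 9.53 and 9.94 in WT replicates 1, 2 and 3. This is the order of arrays of both lipase-related genes. Alox5ap had 7.22, 7.13 and 5.83 in Nod2-/-, against 6.40, 5.35 and 5.58 in WT, in the same order again.

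**Figure D4:**
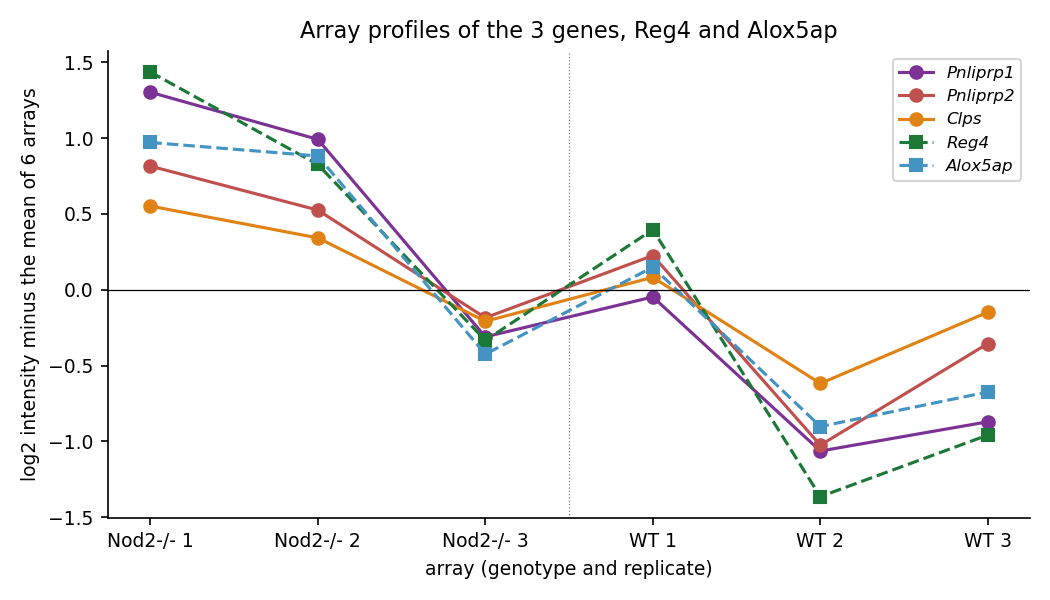
Log2 intensity minus the mean of the 6 arrays (vertical axis) on each Nod2-/- and WT array for Pnliprp1, Pnliprp2, Clps, Reg4 and Alox5ap. Lines only join the points of a gene; all 5 genes are highest in Nod2-/- replicate 1 and lowest in WT replicate 2, and their values in WT replicate 1 exceed those in Nod2-/- replicate 3.

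Other products of Paneth cells were set beside the lipases from a list of 38 genes, of which 8 are in the authors' table (21.1%). The table holds 3.65% of all probe sets, those without a gene name included. This list and those below leave out Pnliprp1, Pnliprp2 and Clps. They were written with earlier results of these data known, and the table was selected on the genotype difference. The shares therefore do not measure enrichment. Of the 8 genes, 7 were higher in Nod2-/- and 1 lower, none called by limma, with a median log2 difference of 1.08 (0.66 without WT replicate 1). They included the pentraxin Mptx1 (4.53-fold), the antibacterial lectins Reg3b (3.68-fold) and Reg3g (1.94-fold), the ribonuclease Rnase1 (2.29-fold), the receptor Kit (1.49-fold) and the peroxidase Gpx2 (1.37-fold). Tff3, a goblet cell peptide that the list also held, was 1.36-fold lower. Without WT replicate 1 the log2 difference was 0.75 for Reg3b (1.88 with all arrays), 0.30 for Reg3g (0.96), 0.26 for Gpx2 (0.46) and -0.13 for Tff3 (-0.44). Without WT replicate 3 that of Tff3 was -0.74. The WT arrays ranked differently for several of these genes than for the lipases. WT replicate 1 was the highest WT array for Pnliprp1, Pnliprp2, Clps, Reg4 and Rnase1, and the lowest WT array for Mptx1, Reg3b, Reg3g and Gpx2. Reg3b, for example, had log2 intensities of 7.42, 11.42 and 10.20 in WT replicates 1, 2 and 3, where Clps had 12.03, 11.33 and 11.80.

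Of the 12 Paneth cell markers used to check the label, 4 are in the table under a symbol of their own. Lyz1, Mmp7 and the alpha-defensin Defa24 are not among these. Probe sets with several symbols were not searched, so the label could not be checked on Lyz1, Mmp7 and alpha-defensins. The 4 are Reg3b, Reg3g, Kit and Mptx1, and Reg3b and Reg3g had the highest mean log2 intensities of these in both genotypes. The summed intensity of the 4 ranged between 7297 and 7620 in Nod2-/- and between 1223 and 6227 in WT. Markers are in the table because they differ between genotypes. The separation of this sum, and of those below, is therefore partly set by that selection. In such bulk captures, more Paneth cells and more RNA of these genes per cell cannot be told apart. Tuft cell markers, 4 of 4 in the table, had summed intensities of 184 to 276 in Nod2-/- and 150 to 168 in WT. Those of fibroblasts, 3 of 4, had 677 to 881 in Nod2-/- and 349 to 582 in WT. Other markers overlapped between genotypes. Goblet cell markers, 4 of 6, had 3026 to 3417 in Nod2-/- and 1912 to 4142 in WT, with 2 higher and 2 lower. Of the leukocyte markers only Cd74, 1 of 3, is in the table, with 610 to 1419 in Nod2-/- and 182 to 1206 in WT. Of the stem cell markers only Lgr5, 1 of 4, is in the table, with 216 to 646 in Nod2-/- and 421 to 909 in WT. The part of any of these cell types in the lipase values was not tested.

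Pancreatic enzymes were also looked for by name. Of 40 genes of the pancreatic acinar cell, 2 are in the table (5.0%), Rnase1 and Reg1, and both were higher in Nod2-/- and neither called. Reg1, a lectin made by pancreas and gut, was 2.06-fold higher and lowest in WT replicate 1, with log2 intensities of 5.78, 6.65 and 6.95 in Nod2-/- replicates 1, 2 and 3, and 5.12, 5.96 and 5.17 in WT replicates 1, 2 and 3. In Nod2-/- its order of arrays was the reverse of that of the lipases. Of the 17 defining acinar markers, which include trypsinogens, elastases, carboxypeptidases, amylase and Pnlip, 0 are in the table under a single symbol. Probe sets with several symbols were not searched. The levels of these markers were not analysed here, and the part of pancreatic RNA in the lipase values was not tested.

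Genes of lipid digestion and of lipid uptake by enterocytes, the absorptive cells, were looked up in the same way. This list left out Pnliprp1, Pnliprp2 and Clps, so its counts do not include them. Of its 56 genes with a RefSeq symbol, 5 are in the table (8.93%) and the others have no value here. Of the 5, 4 were lower and 1 higher in Nod2-/-, none was called by limma, and the median log2 difference was -0.58 (-0.28 without WT replicate 1). Abcg5, a part of the sterol exporter, was 1.76-fold lower, at a log2 intensity of 5.31 ± 0.43 in Nod2-/- and 6.13 ± 0.44 in WT (SD, n = 3 each). Fabp6, the ileal bile acid binding protein, was 1.71-fold lower, and its log2 difference of -0.78 was -0.09 without WT replicate 1 and -1.24 without WT replicate 3. The lipid droplet protein Plin2 (1.50-fold) and the fatty acid binding protein Fabp2 (log2 difference -0.42, and -0.28 without WT replicate 1) were also lower. Slc51b, a subunit of the bile acid exporter, was higher, by 0.41 on the log2 scale. WT replicate 1, the highest WT array for the lipases and colipase, was also the highest for Abcg5, Fabp6, Plin2 and Fabp2. The enterocyte markers, 3 of 8 in the table, had summed intensities of 534 to 861 in Nod2-/- and 826 to 1376 in WT. These markers, too, are in the table because they differ between genotypes, and their part in these values was not tested.

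**Figure D5:**
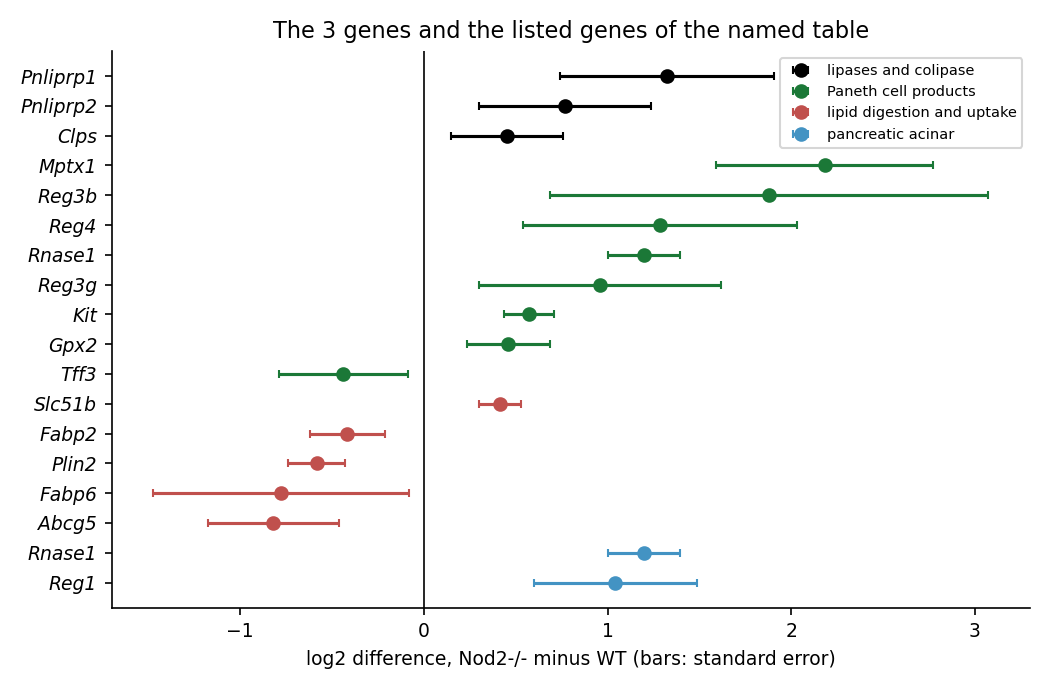
Log2 difference, Nod2-/- minus WT (horizontal axis; bars are standard errors, n = 3 each), of Pnliprp1, Pnliprp2 and Clps and of all listed genes that the authors' table names. The lipases and colipase lie right of 0 with 7 of 8 Paneth cell products. From the lipid digestion and uptake list, which leaves out the lipases and colipase, 4 of 5 genes lie left of 0. Rnase1 stands in both the Paneth and the acinar list.

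On the chromosome, the lipase-related genes were each other's only named neighbour within 1 Mb in the authors' table. Within 1 Mb of Clps lay Cdkn1a, a cell cycle inhibitor, 533 kb away and 1.51-fold higher in Nod2-/-, and Spdef, a transcription factor of goblet and Paneth cells, 829 kb away and 1.39-fold higher. Genes without a place in the table, Pnlip among them, were not analysed here.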

How the data were processed

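The deposited value table gives an intensity on a linear scale for 28853 probe sets on 6 arrays, summarised by RMA (background correction, quantile normalization, probe summary) per the submitters' processing notes. Which software ran RMA, and with what settings, is not given in the sources used here. A second table of the authors, also deposited, covers 3.65% of probe sets on mm9, 855 of them under 1 symbol (annotation release 31, per the file headers), selected on the genotype difference. Its intensity columns equal the value table (relative tolerance 0.001). Its deposited ratio and log2 columns are relative to the WT median, and its deposited p-value, fold and signed fold score columns were not used for results.

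Intensities were log2-transformed and fitted with limma 3.58.1 in R 4.3.3 (genotype as the only term, default eBayes, no filter, Benjamini-Hochberg), tested on simulated data. Symbols were updated by Entrez number through RefSeq (GRCm38.p6), which matched 800 of 855 and changed 116. Of a gene's several probe sets, the brightest was kept. The header's unpaired test was recomputed, with 287 of 287 p-values equal (relative tolerance 0.01). Python 3.11.15 was used for the rest.

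The members, the gene lists and the rules were chosen with earlier results of these data known. Named are the 3 genes, the 3 genes most like each, every listed gene in the table and named neighbours within 1 Mb. Alternatives were leaving out each array, median centring, the replicate number or the date as a block, each date alone, a filter on dim probe sets, other priors and tests, arithmetic means and a scaled distance.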

Additional observations from a re-analysis of the deposited data

How the results depend on the processing

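The log2 differences of Pnliprp1, Pnliprp2 and Clps stayed above 0 under each of the 11 alternatives run on them. With 3 arrays per genotype, leaving 1 out cannot move a difference by as much as the SD within genotypes. Staying within that SD is therefore no check. The SD was smaller than the difference for Pnliprp1 (0.72 against 1.32), Pnliprp2 (0.57 against 0.77) and Clps (0.37 against 0.45). The sign could therefore not change with 1 array left out, and staying above 0 there is no check either. Median centring and the blocks left the differences the same or nearly so. With 1 array left out they lay between 1.00 and 1.81 for Pnliprp1, between 0.45 and 1.07 for Pnliprp2, and between 0.26 and 0.67 for Clps. Ratios of arithmetic mean intensities were 2.64, 1.67 and 1.37 for these genes, against 2.50, 1.70 and 1.37 from log2 means. The number of probe sets called by limma was 0, between 0 and 2 with 1 array left out (2 without Nod2-/- replicate 1), 3 when the dimmer probe sets, below the median, were dropped and 3 with a trended and robust prior. The 3 genes were called under none of these settings. The cause was not tested. With the replicate number as a block the count was 0 (lowest adjusted p 0.969, against 0.183 without it), and the differences of the 3 genes were the same by construction. Same-numbered arrays of the genotypes had deviations that correlated at 0.20, -0.02 and 0.06, and differently numbered ones at -0.20 to 0.16. The numbers were therefore not taken to pair the samples. The replicate 1 arrays, which share a date, had the highest value, and all pairs of arrays from different dates were below 0. Deviations within a genotype sum to 0, so these values are not independent. With the date as a block and on the date of replicates 2 and 3 alone, 0 were called. The date block also left the differences of the 3 genes the same by construction. The unmoderated linear model is the unpaired test of the headers. The median of the Paneth cell products was 0.65 on the date of replicates 2 and 3, that of the lipid genes -0.29 there, and that of the 2 acinar genes 0.86 on the date of replicate 1. The number of arrays and, for Pnliprp1, a WT signal near the array median limit what these data resolve.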

Other observations

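Within WT, the secreted products of the crypt base did not rank the arrays in one way. Among the 3 WT arrays, replicate 1 had the highest Pnliprp1, Pnliprp2, Clps and Reg4 signals and the lowest Reg3b, Reg3g and Mptx1 signals. Reg3b in that array was 7.42 (log2 intensity), against 11.42 and 10.20 in WT replicates 2 and 3. In Nod2-/-, Reg3g spanned 11.75 to 11.92 over the 3 arrays and Reg3b 11.32 to 11.70, while Reg4 spanned 10.56 to 12.33 and Pnliprp1 5.47 to 7.09.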
